A study of Mus musculus with 6 samples.

Results

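Transcripts of 10 genes of red cell development were measured in mouse haematopoietic stem cells (HSCs): the globins Hbb-b2, Hbb-b1 and Hba-a1, the transcription factors Gata1 and Klf1, the erythropoietin receptor Epor, and the surface and enzyme genes Rhag, Tfrc, Car1 and Car2. They were taken by symbol from the 23955 gene symbols of the deposited table, and all 10 were measured. They were chosen by their biology and by the differences between db/db and WT in these same TPM values, so the values below are a description. A row named Hbb-bt repeated the Hbb-b2 row value for value and was not counted.

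The cells came from the bone marrow of C57BL/6 mice aged 4 months. One group was db/db, with a mutated leptin receptor on both copies, which makes mice obese, and the other was its wild-type (WT) littermates. After red cell lysis, HSCs were sorted as cells with Sca-1, c-Kit and CD150 and without lineage markers or CD48, 20000 per library. The lineage antibodies included Ter-119, which marks maturing red cells. Each of 3 experiments gave 1 WT and 1 db/db library, so n = 3 per genotype, and replicates are numbered here by experiment. The db mutation is present from conception in every cell, so the lost receptor and the obesity it brings cannot be told apart here. The labels do not say how many mice gave a library, and p-values cover no spread beyond these libraries. In the limma fits used below, each gene's variance is also moderated by that of other genes. The other genes weigh more, with 17.7 prior against 4 residual degrees of freedom.

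Red cells arise from HSCs through progenitors shared with megakaryocytes. GATA1 and its partners open erythroid genes, KLF1 binds CACCC boxes and drives the adult beta-globin gene, and erythropoietin acting through EPOR keeps committed progenitors alive. Late in the programme the cells take up iron through the transferrin receptor, make heme, and fill with haemoglobin built from alpha and beta chains. HSCs can carry low levels of transcripts of such lineage programmes before commitment, which is called priming.

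Values are TPM, a transcript abundance corrected for length, and the number of reads behind each is unknown. Lepr, the gene of the leptin receptor, was between 2.34 and 2.93 TPM in WT and between 1.51 and 2.44 TPM in db/db libraries, and a gene-level value does not show the mutation. Stem cell genes were detected in all 6 libraries, with Ly6a (Sca-1) at 308 to 463 TPM and Hlf at 169 to 348 TPM. Slamf1 (CD150) did not overlap, at 11.91 to 23.99 TPM in WT and 24.96 to 38.9 TPM in db/db (adjusted p = 0.919 by limma). Of 12 stem cell genes, 2 were higher in db/db without overlap, Slamf1 and Tek, 0 were lower without overlap, and 0 passed limma. By comparison, 7.85% of the 11931 genes tested were higher without overlap and 2.32% were lower. Cd48, which the sort excluded, was at 5.35, 4.2 and 1.09 TPM in WT replicates 1 to 3. In db/db it was at 9.1, 21.44 and 1.63 TPM, and the groups overlapped. Whether the sorted populations differed between genotypes was not tested. Of 11931 genes whose mean reached 1 TPM, 4 rows passed limma at an adjusted p under 0.05, which is 0.0335%, and all 4 were higher in db/db (Hbb-b2 and its repeat Hbb-bt are among them). The median log2 difference of all tested genes was 0.18 rather than 0, and it was 0.00 after median-of-ratios scaling, so differences are also given relative to it. An unadjusted p under 0.05 was found for 489 genes with db/db higher and 149 with db/db lower, and after that scaling for 297 and 355.

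Promoter sequences are shown for the beta-globin genes and for Klf1 and Rhag, because the groups of Hbb-b2, Klf1 and Rhag did not overlap, and because GATA and CACCC letters are those that GATA1 and KLF1 are known to bind. The sequences are RefSeq's for build GRCm38.p6, which is later than the mm9 build of the deposited values. RefSeq windows were found for 6 of the 10 genes, and Hbb-b2, Hbb-b1, Car1 and Car2 had none. Hbb-bt is shown because its row repeats Hbb-b2, and Hbb-bs is its neighbour among the adult beta-globin genes. Each line gives the 250 bases before the annotated start, 5′ to 3′ on the gene's own strand. Capitals mark GATAA (or TTATC, the same on the other strand), CACCC (or GGGTG) and TATAA (or TTATA).
Hbb-bt, chr7:103813924-103814173, minus strand: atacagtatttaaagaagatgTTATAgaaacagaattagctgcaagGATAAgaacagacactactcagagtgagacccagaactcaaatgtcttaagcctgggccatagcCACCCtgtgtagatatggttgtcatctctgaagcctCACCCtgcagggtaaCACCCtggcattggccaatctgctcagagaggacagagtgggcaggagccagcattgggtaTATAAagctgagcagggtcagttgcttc
Hbb-bs, chr7:103827929-103828178, minus strand: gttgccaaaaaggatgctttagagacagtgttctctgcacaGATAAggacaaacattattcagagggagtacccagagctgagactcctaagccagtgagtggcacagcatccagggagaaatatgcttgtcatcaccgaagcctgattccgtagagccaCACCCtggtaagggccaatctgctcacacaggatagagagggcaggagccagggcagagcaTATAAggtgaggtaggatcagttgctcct
Klf1, chr8:84901732-84901981, plus strand: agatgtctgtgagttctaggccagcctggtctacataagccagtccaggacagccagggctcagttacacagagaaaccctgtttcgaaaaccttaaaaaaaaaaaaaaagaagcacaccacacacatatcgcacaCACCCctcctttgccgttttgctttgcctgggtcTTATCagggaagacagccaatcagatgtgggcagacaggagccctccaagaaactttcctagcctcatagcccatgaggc
Rhag, chr17:40810899-40811148, plus strand: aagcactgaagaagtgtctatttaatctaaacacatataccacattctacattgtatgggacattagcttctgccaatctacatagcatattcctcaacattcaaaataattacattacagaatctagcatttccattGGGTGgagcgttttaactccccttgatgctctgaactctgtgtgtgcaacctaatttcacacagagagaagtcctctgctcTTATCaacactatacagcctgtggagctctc

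The Hbb-bt window, searched from 250 bases before to 50 bases after the start, held 3 CACCC matches, beginning at -140, -104 and -89, and a TATAA at -28. It also held GATAA at -204 and TTATA at -229. The Hbb-bs window held GATAA at -209 and 1 CACCC, at -90, with TATAA at -29. Klf1 held TTATC at -80 and CACCC at -114, with a GGGTG at base 29 after the start, which is not printed, and Rhag held TTATC at -31 and GGGTG at -112. No matches overlapped. Of the 6 genes with a window, 4 held GATAA and 6 held CACCC on either strand, and Gata1 and Tfrc had no GATAA. Among all 32851 windows of this length in the table, 25.4% held GATAA, 57.5% CACCC, 24.9% TATAA and 12.6% both GATAA and CACCC. A match describes letters and is not a bound site.

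The globin rows cannot be read as separate genes without care, because their coding sequences are nearly the same. Hbb-bt and Hbb-bs differed at 1 of 444 coding bases (99.8% identical), and Hba-a1 and Hba-a2 at 1 of 429. Reads were 75 bases long, and 342 of the 370 windows of 75 coding bases (92.4%) were the same in Hbb-bt and Hbb-bs, against 56.6% over the whole transcripts. For Hba-a1 and Hba-a2 these shares were 86.2% and 62.2%. Sequences under the symbols Hbb-b2 and Hbb-b1 were not compared. Whether those rows stand for separate genes in these mice was not tested. The stretches below are the coding bases 343 to 417 of the beta-globin pair and 307 to 381 of the alpha-globin pair in GENCODE M21 (GRCm38), with the 1 base that differs in capitals, to show how little of a read separates the copies.
Hbb-bt: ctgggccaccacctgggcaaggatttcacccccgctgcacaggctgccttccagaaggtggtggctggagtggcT
Hbb-bs: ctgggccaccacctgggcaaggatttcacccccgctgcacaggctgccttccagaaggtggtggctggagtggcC
Hba-a1: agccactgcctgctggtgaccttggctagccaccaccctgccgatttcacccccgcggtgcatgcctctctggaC
Hba-a2: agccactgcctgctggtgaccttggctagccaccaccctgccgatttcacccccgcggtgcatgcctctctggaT

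Hbb-b2, an adult beta-globin gene, was higher in every db/db library than in any WT library. The WT libraries held 89.3, 79.0 and 55.1 TPM (replicates 1, 2 and 3) and the db/db libraries 1348, 513 and 256 TPM in the same order. The groups did not overlap, and the lowest db/db library exceeded the highest WT library. Within experiments, db/db was 15.1, 6.49 and 4.65 times WT. The mean was 74.5 ± 17.6 TPM for WT, against 706 ± 571 TPM for db/db (SD, n = 3), and Hbb-b2 moved from rank 1439 to rank 178 of the symbols by mean level. It rose by 2.93 (SE 0.39) on the log2(TPM + 1) scale, with an adjusted p of 0.000688 by limma, and by 2.75 relative to the median of all genes. It was the 1 gene of the 10 that passed, where 0.0335% of all tested genes did. The db/db libraries also spread more widely, with a coefficient of variation of 80.9% against 23.6% in WT. The median over tested genes was 32.1% in db/db and 31.0% in WT. The SE and p by limma draw mostly on the variance of other genes, so they do not show this spread in full. Because RNA came from sorted populations, more cells with globin RNA and more globin RNA per cell cannot be told apart.

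The call for Hbb-b2 was lost without the filter on low values, after median-of-ratios scaling or quantile normalization, with a robust prior, and without a trend, where the adjusted p by limma ran from 0.198 to 0.890, and when WT replicate 3 (0.0882) or db/db replicate 2 (0.149) was left out. Its log2 difference stayed between 2.30 and 3.49 in all 24 alternatives.

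Hbb-b1, the other adult beta-globin symbol in the set, had overlapping groups. In replicates 1 to 3 it was at 5.84, 17.2 and 7.91 TPM in WT and at 0, 56.2 and 15.6 TPM in db/db. Db/db replicate 1, the library with the most Hbb-b2, was listed at 0 for Hbb-b1, and db/db replicate 2 was the highest. Db/db replicate 1 was also the only library with Hbb-bs above 0, at 18.5 TPM. Whether reads were divided differently between the Hbb-b1 and Hbb-bs rows there was not tested. The log2 difference was -0.08 (SE 0.86, adjusted p = 0.995 by limma). Subtracting Hbb-b2 from Hbb-b1 within each library gave -3.72, -2.14 and -2.65 for the WT libraries, and -10.40, -3.17 and -3.95 for the db/db libraries, on the log2(TPM + 1) scale. The mean difference between genotypes was -3.002, with an exact two-sided permutation p of 0.2 where 0.1 is the smallest possible with 3 libraries a group. Without db/db replicate 1 that difference was -0.72.

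Hba-a1, an adult alpha-globin gene, had overlapping groups. WT replicates 1 to 3 were at 8.73, 30.7 and 1.03 TPM and db/db replicates at 8.60, 24.2 and 4.35 TPM. Replicate 2 was the highest library in both genotypes and replicate 3 the lowest. The log2 difference was 0.35 (SE 0.70, adjusted p = 0.949 by limma). The duplicate Hba-a2 and the embryonic globins Hbb-y, Hbb-bh1, Hbb-bh2 and Hba-x were listed at 0 in all 6 libraries, and Hbb-bs was at 0 in all except db/db replicate 1, at 18.5 TPM.

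Because reads of near-identical copies are divided by an estimate, the globins were also summed by chain. The beta sum of Hbb-b2, Hbb-b1 and Hbb-bs reached 95.1, 96.3 and 63.0 TPM in the WT libraries and 1367, 569 and 271 TPM for db/db, again without overlap. Hbb-b2 made up 82.1% to 93.9% of it in WT and 90.1% to 98.6% in db/db. With the repeated Hbb-bt row added, the beta sum would be 118 to 184 TPM in WT and 527 to 2715 TPM in db/db. The alpha sum equals Hba-a1 and overlapped between the genotypes. The ratio of beta to alpha was 10.9, 3.13 and 61.1 for WT libraries, against 159, 23.6 and 62.4 for db/db libraries, with means of 25.1 ± 31.5 and 81.6 ± 69.7 (SD, n = 3). It was higher in db/db in each experiment, but by little in experiment 3, and the groups overlapped. Beta transcripts were therefore listed well above alpha transcripts in all 6 libraries.

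**Figure D1:**
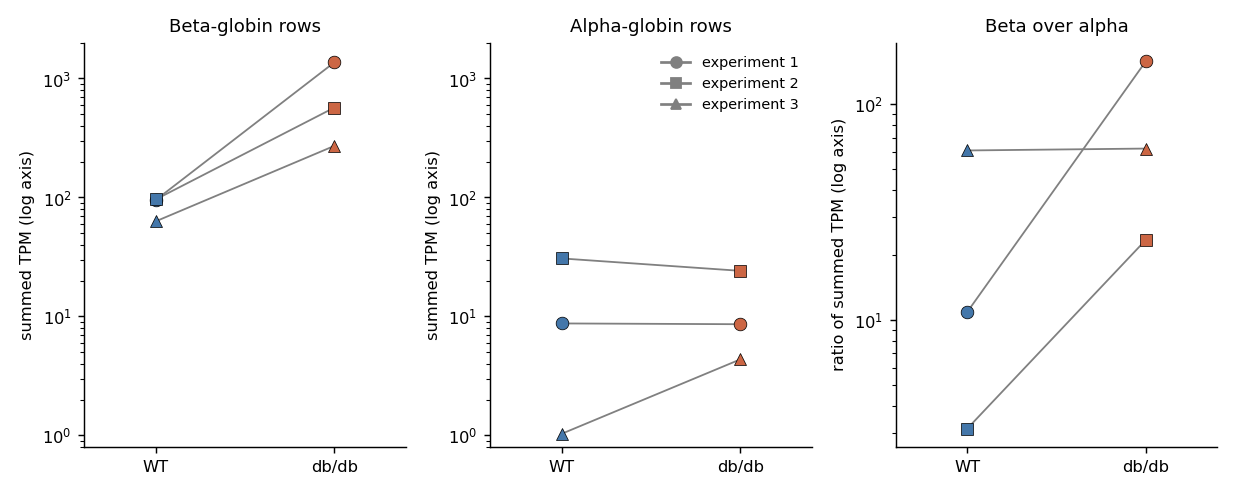
Summed beta-globin TPM (Hbb-b2, Hbb-b1 and Hbb-bs, without the repeated Hbb-bt row), summed alpha-globin TPM (Hba-a1 and Hba-a2) and their ratio in each library, on log axes, with lines joining the WT and db/db libraries of 1 experiment. The beta sum is 63.0 to 96.3 TPM in WT and 271 to 1367 TPM in db/db, while the alpha sums overlap.

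Of the regulators, the genotypes did not overlap for Klf1 and did for Gata1 and Epor. Klf1, the factor that drives adult beta-globin, stood in replicates 1 to 3 at 4.04, 5.36 and 0.63 TPM in WT, and at 9.34, 10.7 and 6.07 TPM in db/db. Every db/db library exceeded every WT library, and db/db was 2.31, 1.998 and 9.63 times WT within experiments. The log2 difference was 1.34 (SE 0.54), or 1.16 relative to the median of all genes, with an adjusted p of 0.875 by limma, so Klf1 did not pass. The experiment with the widest ratio was the one whose WT library had the lowest Klf1.

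Gata1, the master regulator of red cell and megakaryocyte genes, was at 10.1, 12.9 and 15.5 TPM in WT and at 7.91, 23.9 and 8.16 TPM in db/db. The highest and the lowest library were both db/db. The log2 difference was -0.11 (SE 0.44, adjusted p = 0.980 by limma), with within-experiment differences of -0.32, 0.84 and -0.85. Epor, the receptor for erythropoietin, was at 4.42, 5.88 and 6.00 TPM in WT and at 8.52, 5.95 and 3.90 TPM in db/db, and its groups overlapped as well. Its log2 difference was 0.10 (SE 0.47, adjusted p = 0.983 by limma), and it was -0.05 after median-of-ratios scaling and -0.09 after quantile normalization.

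Rhag, the Rh-associated glycoprotein that carries the Rh complex on the red cell membrane, had the most even difference of the set across experiments. The 3 WT libraries were at 1.56, 1.71 and 0.91 TPM and the db/db libraries at 8.20, 8.56 and 5.86 TPM. The groups did not overlap, and all 3 WT libraries were below 2 TPM. Within experiments the log2 differences were 1.85, 1.82 and 1.84, and the ratios of TPM were 5.26, 5.01 and 6.44. The estimate was 1.84 (SE 0.50), or 1.66 relative to the median of all genes. Its unadjusted p was 0.0014, the rank 40 of all tested genes, and its adjusted p of 0.411 by limma did not pass.

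The transferrin receptor gene Tfrc, the main route of iron into erythroid cells, was at 13.5, 4.99 and 10.0 TPM in WT and at 2.40, 11.4 and 4.47 TPM in db/db. Experiments 1 and 3 had less Tfrc in db/db and experiment 2 had more, and the groups overlapped. The log2 difference was -0.68 (SE 0.52, adjusted p = 0.920 by limma).

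Car1 and Car2 encode cytosolic carbonic anhydrases, abundant enzymes of the red cell. Car1 was at 51.1, 59.1 and 14.1 TPM in WT and at 28.9, 212 and 30.6 TPM in db/db, so that 1 db/db library stood far above the other 5. Car2 was at 469.9, 469 and 760.1 TPM in WT and at 625, 787 and 669.9 TPM in db/db, with WT replicate 3 inside the db/db range. The log2 differences were 0.70 (SE 0.56) for Car1 and 0.32 (SE 0.23) for Car2, both with an adjusted p of 0.920 by limma. Car1 minus Car2 within a library was -3.18, -2.97 and -5.65 for WT libraries, and -4.39, -1.89 and -4.41 for db/db libraries. The mean difference was 0.37, with an exact two-sided permutation p of 0.9, from which nothing is read for the same reasons as for the beta-globin pair. Without db/db replicate 2 the Car1 difference was -0.23, and that of Car1 minus Car2 was -0.47, or -0.49 without WT replicate 3.

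**Figure D2:**
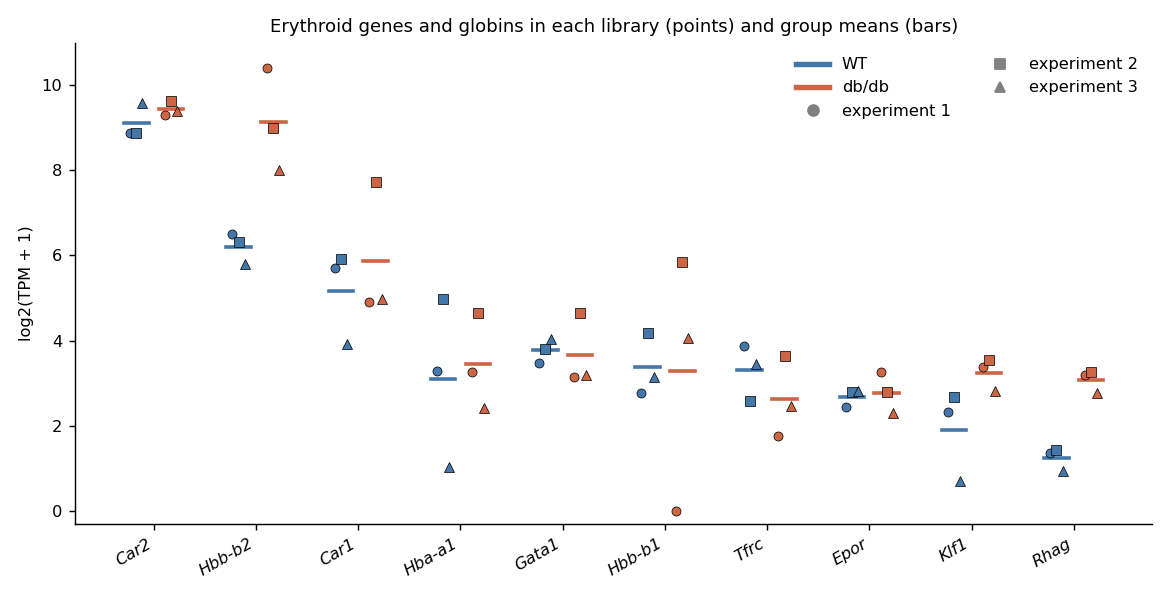
Levels of the 10 genes as log2(TPM + 1) in each library, with points for libraries (marker shape gives the experiment) and bars for the group means. Hbb-b2, Klf1 and Rhag are the genes whose WT and db/db points do not overlap.

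Across the set, 3 of 10 genes (Hbb-b2, Klf1 and Rhag) had groups that did not overlap, all higher in db/db, and these 3 were also the ones higher in db/db in every experiment. Over all tested genes, 7.85% were higher in db/db without overlap, 2.32% lower, and 22.7% higher in all 3 experiments. An unadjusted p under 0.05 was reached by these 3 genes and by 4.1% of tested genes with db/db higher. Nothing is read from these counts, since this contrast chose the genes. The median log2 difference of the 10 was 0.34, against 0.18 for all tested genes, and 6 of the 10 lay above that background. The sign of the difference turned for Hbb-b1, Hba-a1, Gata1, Epor and Car1 in at least 1 of the fits that left out 1 library.

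**Figure D3:**
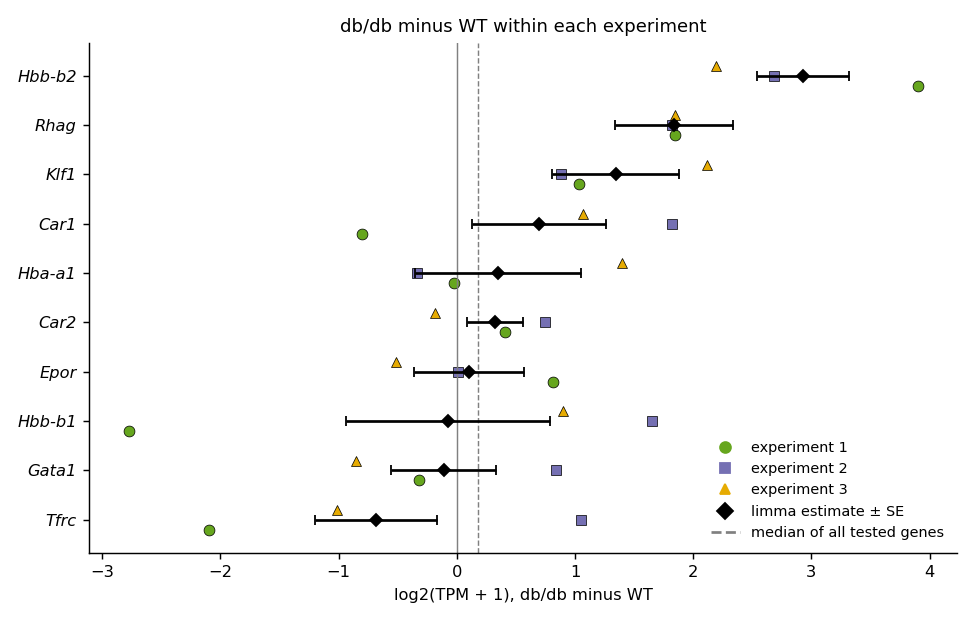
The db/db minus WT difference of each gene in log2(TPM + 1), with 1 marker per experiment and the limma estimate with its SE, and a dashed line at the median of all tested genes, 0.18. The 3 experiments lie together for Rhag (1.82 to 1.85) and apart for Hbb-b1 (-2.77 to 1.65).

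The counts varied by experiment. Of the 10 genes, 5 were higher in db/db in experiment 1, 9 in experiment 2 and 6 in experiment 3, with median differences of 0.20, 0.97 and 0.98. Over all tested genes these medians were 0.00, 0.45 and 0.09. Db/db replicate 2 held the highest value for 6 of the 10 genes, where it held the highest value of 25.8% of tested genes, and WT replicate 3 held the lowest for 5, against 6.73% of tested genes. The part of these 2 libraries in the differences was not tested beyond the fits without them.

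Ordered by mean level, which TPM allows between genes, WT ran Car2, Hbb-b2, Car1, Hba-a1, Gata1, Hbb-b1, Tfrc, Epor, Klf1 and Rhag. Only Car2 and Hbb-b2 had separate ranges among neighbours in that order. In db/db the order was Hbb-b2, Car2, Car1, Hbb-b1, Gata1, Hba-a1, Klf1, Rhag, Epor and Tfrc, and only Car2 and Car1 were separate. Car2 was thus among the most abundant of these transcripts in both genotypes, and Klf1 and Rhag, lowest in WT, lay above Epor and Tfrc in db/db by means whose ranges overlap.

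Other genes of the erythroid programme were counted in 7 lists, which held 113 symbols of the table, 93 of them tested. None of the 93 passed limma. At an unadjusted p under 0.05, 5 were higher (5.38%, against 4.1% of all tested genes) and 1 was lower (1.08%, against 1.25%). Without overlap, 5 were higher (5.38%, against 7.85% of all tested genes) and 2 were lower (2.15%, against 2.32%).

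The list of erythroid transcription factors and cofactors had 20 tested members with a median log2 difference of 0.25. Sox6, a factor that helps to silence embryonic globin, was at 11.99, 5.53 and 15.2 TPM in WT and 18.7, 22.3 and 21.7 TPM in db/db, without overlap (log2 difference 0.97, adjusted p = 0.899 by limma). Lmo2, a bridging protein of the GATA1 complex and the most abundant, averaged 715 and 827 TPM, and Gfi1b, a repressor needed in erythroid cells, 125 and 94.2 TPM. Ikzf1, which encodes Ikaros, averaged 96.3 and 144 TPM.

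For signalling downstream of erythropoietin and stem cell factor the median of 16 tested genes was 0.27. Cish, a feedback inhibitor induced by STAT5, was at 64.7, 42.2 and 61.4 TPM in WT and 108, 86.1 and 87.3 TPM in db/db, without overlap (log2 difference 0.75, adjusted p = 0.808 by limma). Kit, the receptor for stem cell factor, averaged 248.9 and 294 TPM. Gab2, a docking protein of the same receptors, averaged 15.9 and 25.02 TPM, and Fam132b, which encodes the hormone erythroferrone, 0.633 and 4.09 TPM with 9.72 TPM in db/db replicate 2.

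Heme synthesis and iron genes had lower medians than the erythroid lists above. The median of 14 tested heme genes was 0.03 and that of 12 iron genes -0.04, both under the 0.18 of all genes. Alas2, the erythroid form of the first heme enzyme, did not exceed 0.45 TPM in any library. Ftl1, the ferritin light chain, averaged 2599 and 2515 TPM, and Slc11a2, an iron transporter, 32.7 and 22.7 TPM.

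Of 23 genes of the red cell membrane and cytoskeleton, 10 (43.5%) were under the mean of 1 TPM, against 50.2% of all symbols in the table, among them Slc4a1 (band 3, the anion exchanger), at most 0.60 TPM in any library. Slc14a1, a urea transporter, averaged 48.3 and 80.2 TPM, and Cd47, found on most blood cells, 144 and 191 TPM without overlap. Of 17 tested late enzymes and maturation genes the median was 0.19, and Ctse, the protease cathepsin E, was at 41.9, 24.4 and 38.2 TPM in WT and 53.8, 105 and 61.6 TPM in db/db, without overlap (log2 difference 1.03, adjusted p = 0.607 by limma). The antioxidant enzyme gene Gpx1 averaged 2126 and 2045 TPM.

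**Figure D4:**
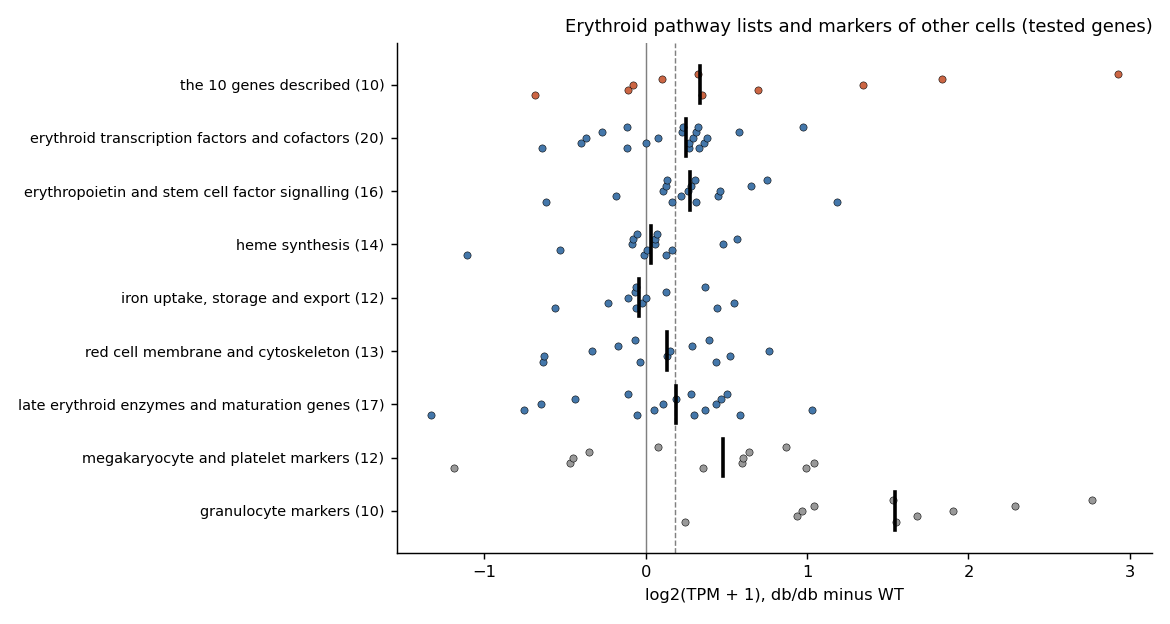
The log2 difference, db/db minus WT, of each tested gene by list, with a black bar at each list's median, the 10 genes in the top row and markers of other cells in grey. The medians run from -0.04 (iron) to 0.27 (signalling) in the erythroid lists with more than 1 tested gene, beside 0.18 for all tested genes (dashed line), and the granulocyte median is 1.54.

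Markers of other cells were measured beside these genes, and their part in the results was not tested. Megakaryocyte and platelet genes, of the lineage nearest to the erythroid one, summed to 1145 to 1412 TPM in WT and 1500 to 1693 TPM in db/db, without overlap. None of the 12 passed limma, 1 had an unadjusted p under 0.05 in each direction, and Gp1ba averaged 7.58 and 17.4 TPM where Treml1 averaged 16.5 and 7.23 TPM. Granulocyte markers summed to 4749, 548 and 475 TPM in WT and 4134, 2255 and 1591 TPM in db/db. Their sum was highest in both libraries of experiment 1, none of the 10 tested genes passed limma, and 6 were higher at an unadjusted p under 0.05, as 4.1% of all tested genes were. Lcn2, a neutrophil granule protein, averaged 54.6 and 185 TPM. WT replicate 1 held most of the WT granulocyte signal, and without it the 4 markers looked at singly passed limma, with log2 differences of 3.99 for Lcn2 (adjusted p = 1.54e-05), 3.26 for S100a8 (0.000129), 2.87 for S100a9 (0.000283) and 3.95 for Camp (0.000144). With all libraries they were 2.76, 1.68, 1.55 and 2.29, and within experiment 1 they were 0.60, -0.48, -0.13 and -0.05. Lcn2 also passed without db/db replicate 3 where the filter on low values was recomputed (adjusted p = 0.0101 by limma). The fit without WT replicate 1 kept db/db replicate 1, its partner in experiment 1. The 4 markers were named by their p or level in these same data. Nothing is therefore read from these calls. Macrophage markers, of the cells that nurse erythroblasts and can carry their RNA, summed to 10.5 to 67.9 TPM in WT and 30.3 to 59.5 TPM in db/db. Of 12 lymphocyte markers 6 were at 0 in every library, among them Cd3e and Ms4a1, and the sums of 34.3 to 62.1 and 29.9 to 61.4 TPM were mostly Cd79b.

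The tested genes most like the mean log2 level of the 3 globins over the 6 libraries included Nxt2, Strn, Stag1, Ap3m2 and Ranbp2, with Pearson correlations of 0.987 to 0.970. Nxt2 was at 2.94, 4.96 and 1.72 TPM in WT and 4.55, 9.77 and 4.49 TPM in db/db, highest in db/db replicate 2 like the pattern itself. Hbb-b2 alone was highest in db/db replicate 1, at 1348 TPM, where Hbb-b1 was listed at 0. The mean of the 3 globins is therefore not the pattern of Hbb-b2. For the mean of Gata1, Klf1 and Epor the closest were Esyt1, Mut, Zfp53, Wdr91, Nup62 and Creb3l1, at 0.990 to 0.961. Among the tested genes outside the set, 57 and 58 exceeded 0.9, and 6 libraries are too few to set the named genes apart from these. These correlations are a description over libraries that share genotype and experiment.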

How the data were processed

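HSC RNA gave 3 WT and 3 db/db stranded mRNA libraries with paired reads of 75 bases, per the labels' protocols. The authors deposited TPM per gene symbol made with RSEM and Bowtie2 on mm9, per the submitters' processing notes; versions and annotation are not given in the sources used here. TPM are scaled to a fixed total per library, so read depth is unknown and no counting interval can be given. RSEM divides reads between near-identical copies.

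The 10 genes and all lists were chosen with earlier results of these data known. From each list the text names up to 3 tested genes of smallest p and the gene of highest mean, beside genes at or near 0 chosen after their values were seen. Some genes this rule names are not reported here. log2(TPM + 1) of the 11931 genes whose mean reached 1 TPM was fitted with limma 3.58.1 (R 4.3.3) by genotype, with a trend and Benjamini-Hochberg adjustment, on the scale of log2(TPM + 1), which understates changes of low genes. The test was run on simulated data first.

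Experiment numbers in the labels pair the libraries. Deviations from group means correlated at 0.04, 0.01 and 0.16 within experiments and -0.12 to 0.08 between. Alternatives were other pseudocounts, filters and scalings, a robust prior, no trend in the moderation, weights per library, the replicate block, and each library left out.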

Additional observations from a re-analysis of the deposited data

How the results depend on the processing

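Of all tested genes, 4 passed limma, and 0 did without the filter on low values (unadjusted p under 0.05: 535 higher and 213 lower) or with moderation without a trend (457 and 148), 1 with median-of-ratios scaling, 1 with quantile normalization, 1 with a robust prior and 16 with array weights. Leaving out 1 library gave 0 to 18, with 16 when WT replicate 1 was absent and 0 when db/db replicate 2 was (333 and 122). With the experiment as a replicate block 6 passed, and 4 with median-of-ratios scaling and the block. Median-of-ratios scaling gave an unadjusted p under 0.05 to 297 genes with db/db higher and 355 with db/db lower, where the unscaled fit gave it to 489 and 149.

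Of the 10 genes, 1 passed, and 0 did without the filter, without a trend, with a robust prior, or after either scaling. With 1 library left out it was 0 to 1, the 0 arising when WT replicate 3 or db/db replicate 2 was absent. The adjusted p of Hbb-b2 was 0.890 without the filter, 0.360 with median-of-ratios scaling, 0.198 with quantile normalization, 0.398 without a trend and 0.503 with a robust prior. It was 0.000446 with the block and 0.0303 with the block and median-of-ratios scaling, and the block changed no other call of the 10. Where the filter was recomputed on 5 libraries, a choice added after seeing the data, leaving out WT replicate 3 gave 0.00754, and leaving out db/db replicate 2 gave 0.0103. Rhag (1.68 to 2.38) and Klf1 (0.75 to 1.75) stayed positive and passed under none of the alternatives that gave them a value. Rhag had none at a mean of at least 5 TPM.

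Some differences changed sign. With median-of-ratios scaling Epor was -0.053, Ptprc -0.027 and Tmem14c -0.19, and the same with the block added. With quantile normalization Epor was -0.0902, Ftl1 0.11, Gpx1 0.047, Itgam -0.029, Ptprc -0.017 and Tmem14c -0.15, and with array weights Hbb-b1 was 0.79, Gata1 0.11 and Itgam -0.22. With 1 library left out, the ranges were -0.23 to 1.18 for Car1, -0.49 to 0.85 for Car1 minus Car2, -4.34 to -0.72 for Hbb-b1 minus Hbb-b2 (which kept its sign), -0.39 to 0.13 for Cd79b, -0.13 to 0.35 for Epor, -0.18 to 0.079 for Ftl1, -0.60 to 0.14 for Gata1, -0.12 to 0.0021 for Gpx1, -0.69 to 1.29 for Hba-a1, -1.35 to 1.57 for Hbb-b1, -0.27 to 0.73 for Itgam, -0.033 to 0.49 for Lmo2, -0.17 to 0.44 for Ptprc and -0.24 to 0.26 for Tmem14c. The cause was not tested. With 3 libraries a group and no read depth, low genes have no counting error attached.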

Other observations

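Car1 and Car2 are neighbours on chromosome 3, where the order is Car13, Car1, Car3 and Car2, so the other carbonic anhydrase genes were read after their values were seen. Car13 was at 11.03, 6.06 and 8.07 TPM in WT replicates 1 to 3 and at 3.07, 31.0 and 15.6 TPM in db/db, and db/db replicate 2 was highest, as for Car1. Car3 was at 3.73, 4.69 and 4.59 TPM in WT and 6.25, 16.0 and 6.94 TPM in db/db, without overlap and again highest in db/db replicate 2. Its adjusted p by limma was 0.919, so it did not pass. Car9, a membrane carbonic anhydrase that hypoxia induces, was lower in every db/db library, at 16.4, 11.7 and 16.4 TPM in WT against 8.92, 9.70 and 8.42 TPM in db/db (adjusted p = 0.919 by limma). Over all tested genes, 2.32% were lower without overlap. Of 16 carbonic anhydrase symbols, 4 were at 0 in all libraries and 7 were tested.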
